A study of Macaca mulatta with 10 samples.

Results

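The genes described here are 10 genes that mark macrophages, namely *CSF1R*, *CD14*, *CD68*, *CD163*, *MRC1*, *MSR1*, *MARCO*, *SPP1*, *TREM2* and *GPNMB*. They were chosen by symbol. All 10 were found among the 28595 Ensembl macaque genes measured, each under a symbol held by 1 gene. RNA-Seq was performed on adipose tissue and skeletal muscle, each taken from the same 5 male rhesus monkeys and sequenced as 1 library. The hyperinsulinemic monkey rhesus_950807, whose label gives an extreme insulin level, carries a heterozygous nonsense mutation of *PRKD2*, a serine/threonine kinase gene. It was set against the control monkeys rhesus_920401, rhesus_940129, rhesus_940313 and rhesus_950509. The labels give no age, fat depot, muscle or treatment. The hyperinsulinemic group is 1 animal, described in the study as obese, so its insulin level, its body weight, its mutation and any other trait of that animal cannot be told apart.

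Macrophages are phagocytes that live in every tissue and clear dead cells, lipid and pathogens. In adipose tissue they are known to gather around dying adipocytes in obesity, where they load lipid and switch on genes of lipid handling and lysosomes. In skeletal muscle they lie between the fibers and are known for their part in repair after injury. *CSF1R* encodes the receptor of the growth factors CSF1 and IL-34, on which macrophages depend. *CD14* is the co-receptor of bacterial lipopolysaccharide and *CD68* is a glycoprotein of late endosomes and lysosomes. *CD163* takes up hemoglobin-haptoglobin complexes, *MRC1* is the mannose receptor, and *MSR1* and *MARCO* are class A scavenger receptors. *TREM2* is a lipid-sensing receptor, *GPNMB* is a lysosome-linked membrane glycoprotein and *SPP1* encodes the secreted protein osteopontin. The last 3 are known as genes of lipid-laden macrophages.

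Levels are given as RPKM, the authors' read counts per length of transcript and per mapped read of each library, which may be compared between genes. The adipose library of rhesus_950807 held 41780234 mapped reads, against 30669915 to 39379286 in control adipose tissue. Its muscle library held 33961486, against 35682861 to 43268985 in control muscle. At these depths 3 reads correspond to 0.0131 to 0.0942 RPKM, depending on the gene and library. Differences were tested with edgeR, a count model with TMM scaling, over all genes that averaged 1 RPKM or more across the libraries compared, and p-values were adjusted over all of them (Benjamini-Hochberg, threshold 0.05). Errors and p-values measure the spread among the 4 controls, and a spread like theirs is assumed for the hyperinsulinemic animal. Without such a model, an exact two-sided permutation test of 1 animal against 4 cannot give a p below 0.2. The control adipose libraries of rhesus_920401 and rhesus_940313 stand apart in carrying RNA of muscle fibers: the skeletal actin gene *ACTA1* had 1.72 RPKM in the adipose library of rhesus_950807, against 101 in rhesus_920401, 1.18 in rhesus_940129, 80.9 in rhesus_940313 and 0.444 in rhesus_950509. Results in adipose tissue are therefore also given without these 2 libraries.

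The first comparison asked whether macrophage genes were at a different level in adipose tissue of the hyperinsulinemic monkey. Monkey rhesus_950807 had the highest RPKM of the 5 animals for 9 of the 10 genes, *MARCO* being the exception, and the control rhesus_920401 came second for the same 9. The genes of lipid-laden macrophages and *MSR1* stood farthest above the control mean, and *CD163*, *CD14*, *CSF1R* and *MRC1* least among these 9. The controls themselves spread widely, and no gene passed the test. Over all 11981 genes tested, 27.9% had their highest RPKM in rhesus_950807. After TMM scaling, rhesus_950807 was above all 4 controls for 8 of the 10 genes, against 15.7% of all genes. It was above the remaining controls for 9 of the 10 in RPKM without rhesus_920401, against 34.3% of all genes, and for 10 of the 10 without the adipose libraries of rhesus_920401 and rhesus_940313, against 38.4% of all genes. These 2 libraries held the highest control value of each of the 10 genes, so leaving them out could not lower these counts.

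Among the genes that define the lineage, *CSF1R* (ENSMMUG00000011556, chromosome 6, 146531585 to 146565868, minus strand, in the files' own build) had 90.4 RPKM in rhesus_950807, against 68.5 in rhesus_920401, 50.2 in rhesus_940129, 38.0 in rhesus_940313 and 30.5 in rhesus_950509. The animal rhesus_950807 was thus above every control, and the controls ran evenly over a 2.25-fold range. The fitted difference was 1.699-fold (log2 0.76 ± 0.46, SE), with a 95% interval of 0.831 to 3.47. *CD14* (ENSMMUG00000010007, chromosome 6, 137033326 to 137034992, minus strand) had 96.7 RPKM in rhesus_950807, against 75.4, 54.7, 58.9 and 32.4 in rhesus_920401, rhesus_940129, rhesus_940313 and rhesus_950509, a fitted 1.53-fold difference with an interval of 0.741 to 3.15. For *CD68* (ENSMMUG00000013501, chromosome 16, 7306448 to 7308898, plus strand) the values were 127 RPKM in rhesus_950807, against 114, 43.7, 29.4 and 17.5 RPKM in the controls in the same order. Here rhesus_920401 lay close to rhesus_950807, and both were far above the other controls. The fitted *CD68* difference was 2.23-fold with an interval of 0.73 to 6.8.

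The receptors of uptake fell into 2 patterns. *CD163* (ENSMMUG00000005150, chromosome 11, 7769222 to 7803814, minus strand) had 26.2 RPKM in rhesus_950807, against 23.0, 11.2, 14.4 and 14.5 RPKM in rhesus_920401, rhesus_940129, rhesus_940313 and rhesus_950509, and a fitted difference of 1.47-fold (interval 0.758 to 2.84). *MRC1* (ENSMMUG00000011620, chromosome 9, 18104962 to 18202860, plus strand) had 24.5 RPKM in rhesus_950807, against 20.9, 7.39, 10.5 and 11.3 RPKM, and a fitted difference of 1.73-fold (0.816 to 3.68). One unnamed gene model on the same strand lies inside *MRC1* and had no read in any library. Both receptors were at moderate levels, with rhesus_950807 just above rhesus_920401. *MSR1* (ENSMMUG00000002296, chromosome 8, 15975265 to 16042368, minus strand) varied far more, with 12.03 RPKM in rhesus_950807, against 8.68, 0.477, 1.30 and 3.77 RPKM, that is 721 reads against 405, 21, 72 and 213. Its fitted difference was 3.09-fold (0.676 to 14.2). *MARCO* (ENSMMUG00000002610, chromosome 13, 125139176 to 125165377, plus strand) had 6.39 RPKM in rhesus_950807, against 4.50, 2.21, 11.2 and 0.144 RPKM. Thus rhesus_950807 lay inside the control range for *MARCO*, and its log2 difference of 0.26 ± 1.34 turned to −0.14 without the control rhesus_950509.

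The genes of lipid-laden macrophages come next. *SPP1* (ENSMMUG00000008793, chromosome 5, 80941205 to 80948955, plus strand) had 29.3 RPKM in rhesus_950807, against 16.96, 2.79, 11.9 and 3.61 RPKM in rhesus_920401, rhesus_940129, rhesus_940313 and rhesus_950509. *TREM2* (ENSMMUG00000013920, chromosome 4, 40981763 to 40986454, minus strand) had 18.5 RPKM in rhesus_950807, against 11.1, 2.01, 2.63 and 0.245 RPKM. *GPNMB* (ENSMMUG00000012648, chromosome 3, 102963349 to 102992072, minus strand) was the most abundant of the 10 genes in rhesus_950807, with 249 RPKM, against 243, 45.5, 55.7 and 44.5 RPKM. For *GPNMB*, rhesus_950807 and rhesus_920401 were nearly level, and after TMM scaling rhesus_920401 was the higher, with 224 in rhesus_950807 and 230 in rhesus_920401. The fitted differences were 2.93-fold for *SPP1* (0.903 to 9.53), 4.21-fold for *TREM2* (0.749 to 23.7) and 2.33-fold for *GPNMB* (0.705 to 7.69).

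**Figure D1:**
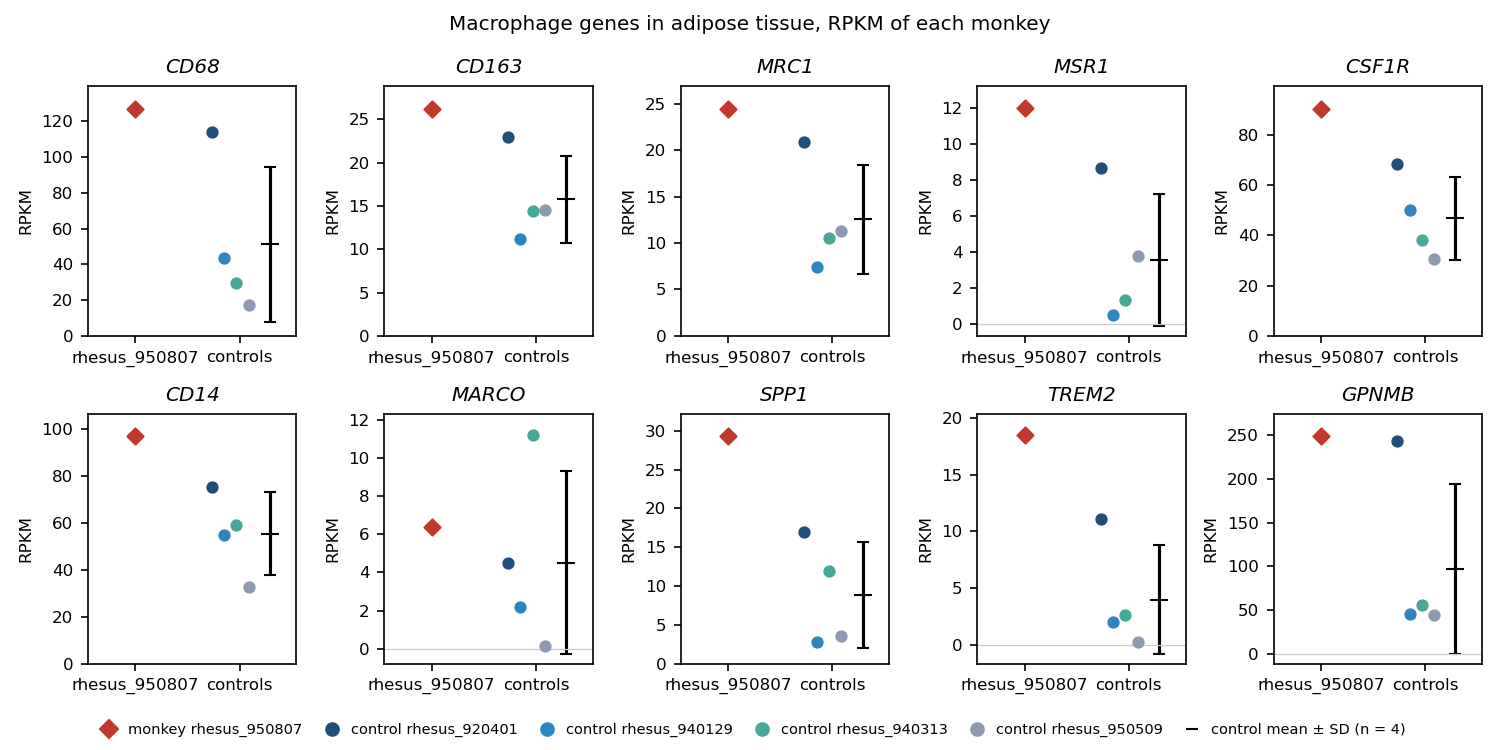
RPKM of the 10 macrophage genes in adipose tissue, 1 panel per gene with its own axis. The diamond is monkey rhesus_950807, the circles are the 4 control monkeys, and the bar is the control mean ± SD. The diamond is the highest point in 9 panels, with control rhesus_920401 second in these, and lies below rhesus_940313 for *MARCO*.

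The edgeR adjusted p was 0.9999 for all 10 genes, and of the 11981 genes tested 0 were called (0%). At an unadjusted p under 0.05, 286 of all genes and 0 of the 10 passed, and DESeq2 called 11 of all genes (0.0918%) and 0 of the 10. The smallest unadjusted p among the 10 in this fit was that of *SPP1*, 0.0691. The median log2 difference of the 10 was 0.97, beside −0.06 for all genes. Without the adipose libraries of rhesus_920401 and rhesus_940313 the median was 2.01 and the log2 difference of *TREM2* was 3.81. These libraries held the highest control value of each of the 10 genes, so a larger difference without them was built in. In bulk tissue, more macrophages and more RNA of these genes per macrophage cannot be told apart.

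Relative to *CSF1R* within the same library, part of this spread was gone for most of the genes, but not for *CD163*. *CD14* was 1.07 times *CSF1R* in rhesus_950807, against 1.06 to 1.55 times in the controls. *CD163* was 0.290 times *CSF1R* in rhesus_950807, against 0.223 to 0.476 times in the controls, and *MRC1* was 0.271 times, against 0.147 to 0.371 times. These 3 ratios in rhesus_950807 lay inside the control range. The *TREM2* ratio was 0.205 in rhesus_950807, against 0.162 in rhesus_920401, 0.0400 in rhesus_940129, 0.0691 in rhesus_940313 and 0.00802 in rhesus_950509. For *GPNMB* it was 2.76 in rhesus_950807, against 3.54 in rhesus_920401 and 0.907 to 1.47 in the other controls, and for *CD68* 1.40 in rhesus_950807, against 1.66 in rhesus_920401 and at most 0.870 in the others. Monkeys rhesus_950807 and rhesus_920401 thus shared high ratios of *TREM2*, *GPNMB* and *CD68*. Only the ratios of *TREM2*, *SPP1* and *MSR1* were higher in rhesus_950807 than in every control. The margin was small for *SPP1* (0.324, against a control maximum of 0.314) and *MSR1* (0.133, against 0.127). These ratios were not tested.

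**Figure D2:**
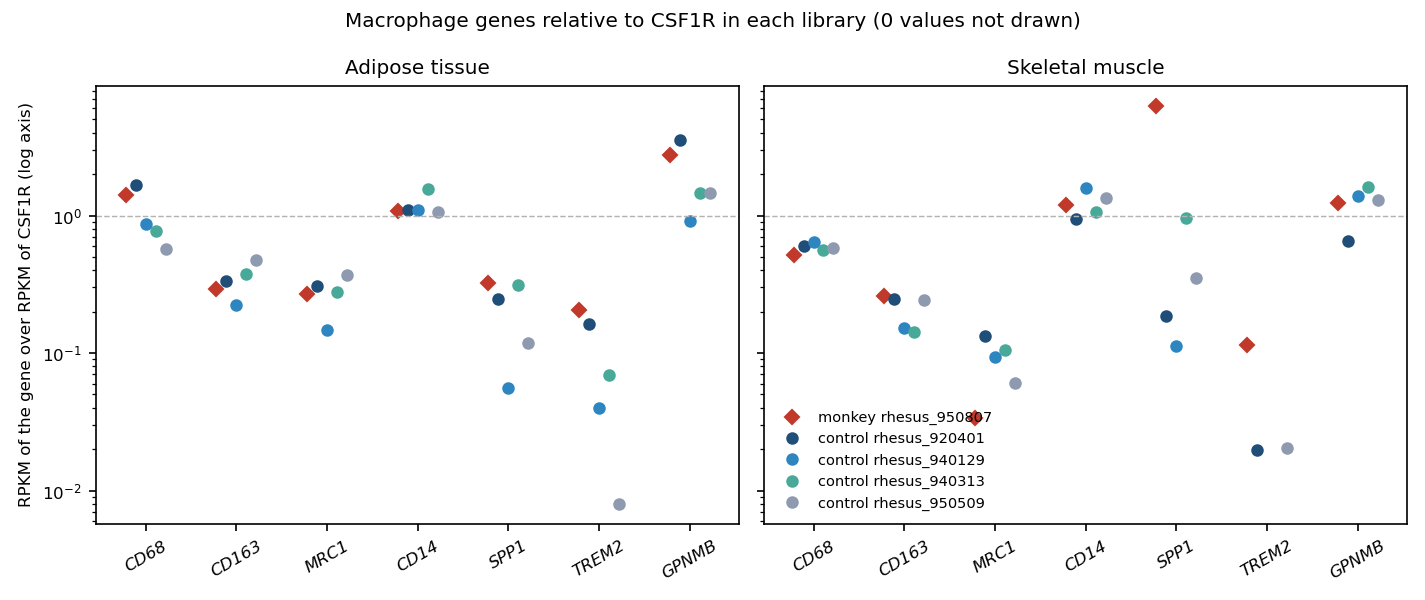
RPKM of 7 macrophage genes divided by that of *CSF1R* in the same library, on a log axis, with adipose tissue on the left and skeletal muscle on the right. Diamonds are monkey rhesus_950807 and circles the control monkeys. In adipose tissue the diamonds and the circles of rhesus_920401 are high for *TREM2*, *GPNMB* and *CD68*, and in muscle the *SPP1* diamond stands at 6.26, above the control range of 0.112 to 0.958.

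Other genes of the lineage had the same order of animals in part. *TYROBP*, the signaling adaptor of TREM2, had 121 RPKM in rhesus_950807, against 92.7, 50.5, 54.3 and 22.9 RPKM in rhesus_920401, rhesus_940129, rhesus_940313 and rhesus_950509. *SPI1*, the transcription factor PU.1, had 34.8 RPKM in rhesus_950807, against 18.5, 18.5, 11.5 and 6.11 RPKM. The ligands of the CSF1 receptor did not stand out, since *CSF1* had 25.2 RPKM in rhesus_950807, against 11.3 to 26.1 RPKM in the controls, and *IL34* had 7.50, against 5.30 to 10.8 RPKM. *IRF8*, a lineage regulator of monocytes, was below every control, with 11.6 RPKM in rhesus_950807, against 14.3 to 30.9 RPKM. Of the 6 growth factor and regulator genes tested, 3 were above and 1 was below all 4 controls in RPKM, and 0 were called. Of all genes tested, 27.9% were above and 7.8% below all 4 controls.

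Of 14 pan-myeloid genes tested, 12 had a higher RPKM in rhesus_950807 than in all 4 controls, with a median log2 difference of 0.93 and 0 called. The integrin chain gene *ITGB2* had 38.1 RPKM in rhesus_950807, against 5.02 to 22.5 RPKM, the tetraspanin gene *CD53* had 36.7, against 7.80 to 22.7 RPKM, and the phagocyte oxidase gene *CYBB* had 23.6, against 4.48 to 15.1 RPKM. Of 6 immunoreceptor adaptor and Fc receptor genes, 4 were above all controls (median 0.62), and of 11 other scavenger receptor genes 10 were (median 0.71). Among the latter *SCARA3* had 58.5 RPKM in rhesus_950807, against 18.03 to 29.3 RPKM. Of 12 genes of tissue-resident macrophages, 8 were above all controls, with a smaller median of 0.42. The sialic acid receptor gene *SIGLEC1* had 8.84 RPKM in rhesus_950807, against 2.71 to 4.93 RPKM, and the coagulation factor gene *F13A1* had 67.1, against 26.1 to 42.3 RPKM. These counts are in RPKM and can be set beside the 27.9% of all genes that were above all 4 controls (15.7% after TMM scaling). The medians of these lists can be set beside −0.06 for all genes, and no list gene was called.

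The other genes of lipid-associated macrophages moved in both directions. Of 17 tested, 8 were above and 1 was below all controls in RPKM, against 27.9% and 7.8% of all genes, with a median log2 difference of 0.33. *LGALS3*, which encodes galectin-3, had 94.8 RPKM in rhesus_950807, against 18.3 to 64.8 RPKM, and the phospholipase gene *PLA2G7* had 12.1, against 3.37 to 6.86 RPKM. The cholesterol exporter gene *ABCG1* was the one below, with 9.12 RPKM in rhesus_950807, against 18.9 to 31.6 RPKM. Lysosome genes (13 tested, median 0.27), the CD14 and Toll-like receptor pathway (13 tested, 0.08), the receptors of SPP1 (7 tested, 0.08) and macrophage cytokines and inducible enzymes (6 tested, 0.09) had medians closer to that of all genes. Among the SPP1 receptors *CD44* had 59.3 RPKM in rhesus_950807, against 30.6 to 46.3 RPKM, and the integrin gene *ITGB3* had 2.76, against 4.09 to 8.84 RPKM. The cytokine antagonist gene *IL1RN* had 4.71 RPKM in rhesus_950807, against 0.336 to 1.72 RPKM.

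Markers of several other cell types were also high in adipose tissue of rhesus_950807. Fibroblast genes summed to 2906 RPKM, against 1466 to 2651 RPKM in the controls, with a median log2 difference of 0.46, and endothelial genes to 239.8 RPKM, against 139.7 to 210.8 RPKM, with a median of −0.03. The summed RPKM of 6 T and NK cell genes was 68.5 in rhesus_950807, against 20.9 to 49.5 in the controls. Most of it was *CD4*, which macrophages also express, with 51.8 RPKM, against 17.98 to 43.2 RPKM, and the other 5 genes summed to 16.6 RPKM, against 2.95 to 9.21 RPKM. The T cell gene *CD3E* had 7.50 RPKM, against 0.876 to 3.60 RPKM. The 5 neutrophil genes that could be matched summed to 15.4 RPKM in rhesus_950807, against 1.71 to 5.26 RPKM. Of these, *CAMP* had 12.8 RPKM in rhesus_950807, against 0 to 2.32 RPKM, and the granule genes *MPO* and *ELANE* were at 0.606 and 0.106 RPKM in rhesus_950807, against at most 0.501 and 0.339 RPKM in the controls. The 4 matched monocyte genes summed to 158 RPKM in rhesus_950807, against 28.2 to 140 RPKM, with a median log2 difference of 0.17 over the 3 tested. Most of the monocyte sum was *LYZ*, with 123 RPKM, against 18.97 to 100.5 RPKM. *S100A9* had 30.2 RPKM, against 4.89 to 47.0 RPKM, and *VCAN* had 4.47, against 1.45 to 5.98 RPKM, both inside the control range. *CD300E* was listed at 0 in all adipose libraries. Mast cell genes went the other way, with a sum of 6.26 RPKM in rhesus_950807, against 7.99 to 17.99 RPKM. Adipocyte genes summed to 4155 RPKM in rhesus_950807, against 2439 to 6022 RPKM. The part of these cells in the levels of the macrophage genes was not tested.

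The second comparison put the same question to skeletal muscle. There the macrophage genes were low, and 5 of the 6 that averaged at least 1 RPKM were under the control mean in rhesus_950807. The sixth, *SPP1*, was far above every control. *MRC1*, *MSR1*, *MARCO* and *TREM2* averaged under 1 RPKM and were not tested. In RPKM, rhesus_950807 was above all 4 controls for 2 of the 10 genes and below all 4 for 3. Among the 8306 genes tested in muscle, 34.9% were above and 15.2% below all 4 controls. After TMM scaling the counts were 2 above and 4 below, against 24.3% and 23.8% of all genes.

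*SPP1* had 18.7 RPKM in muscle of rhesus_950807, against 1.65 in rhesus_920401, 0.543 in rhesus_940129, 2.85 in rhesus_940313 and 1.84 in rhesus_950509. These values rest on 1018 reads in rhesus_950807 (exact Poisson 95% interval 956 to 1083, counting error only), against 102, 31, 197 and 107 reads. No control came near rhesus_950807, and the controls themselves differed 5.24-fold. The fitted difference was 9.64-fold (log2 3.27 ± 0.56, SE), with a 95% interval of 4.01 to 23.2. Its unadjusted p was 0.000212 and its edgeR adjusted p was 0.236, so that it was not called. It passed under some alternatives, with a DESeq2 adjusted p of 0.000611, an edgeR adjusted p of 0.00888 without the filter on low values, and an edgeR adjusted p of 0.0458 without the control rhesus_940313. Across all 14 alternatives the adjusted p from edgeR, limma and DESeq2 ran between 0.000611 and 0.837 and the log2 difference between 2.93 and 3.57. In edgeR 0 of the 8306 genes were called (0%) and 754 had an unadjusted p under 0.05, and DESeq2 called 88 (1.06%).

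The other 5 macrophage genes tested in muscle did not share the high level of *SPP1* in this library. *CSF1R* had 2.99 RPKM in muscle of rhesus_950807, against 8.90, 4.84, 2.97 and 5.22 RPKM in rhesus_920401, rhesus_940129, rhesus_940313 and rhesus_950509. *CD14* had 3.58 RPKM, against 8.44, 7.63, 3.13 and 7.05 RPKM, and *CD68* had 1.54, against 5.37, 3.12, 1.66 and 3.02 RPKM. For these 3 genes rhesus_950807 and the control rhesus_940313 lay close together at the low end. *CD163* had 0.776 RPKM in rhesus_950807, against 2.20, 0.738, 0.424 and 1.27 RPKM, inside the control range. *GPNMB* had 3.71 RPKM, against 5.83, 6.71, 4.80 and 6.76 RPKM, below every control. The fitted log2 differences were −1.05 ± 0.54 for *CSF1R*, −1.06 ± 0.56 for *CD14*, −1.28 ± 0.66 for *CD68*, −0.77 ± 0.83 for *CD163* and −0.88 ± 0.36 for *GPNMB* (SE). None of the 5 was called, with edgeR adjusted p-values between 0.514 and 0.823.

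**Figure D3:**
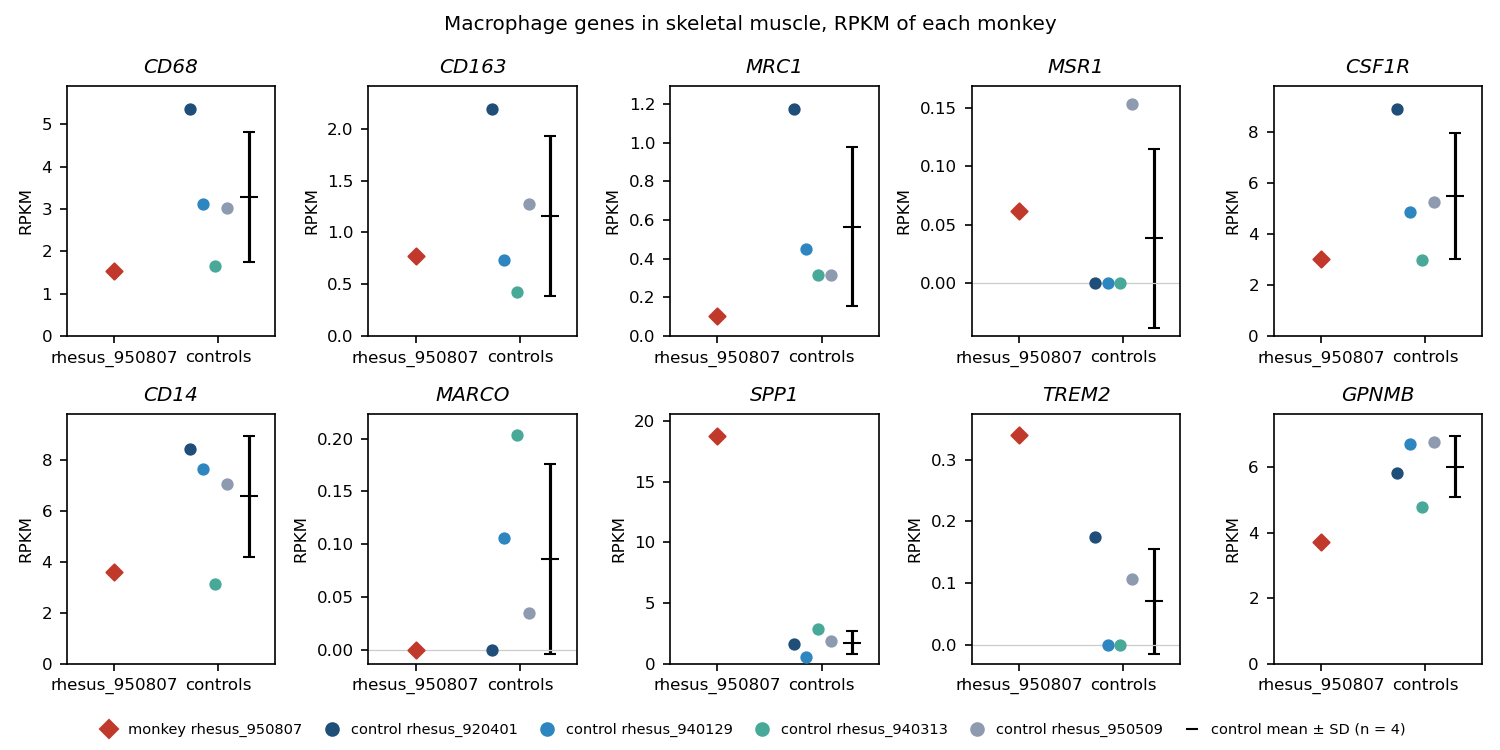
RPKM of the 10 macrophage genes in skeletal muscle, 1 panel per gene with its own axis, with monkey rhesus_950807 as a diamond, the 4 controls as circles and the control mean ± SD as a bar. The *SPP1* diamond stands at 18.7 RPKM, above controls of 0.543 to 2.85 RPKM, and the diamonds of *CD68*, *MRC1* and *GPNMB* are the lowest points.

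The 4 genes under the filter rested on few reads. *MRC1* had 18 reads in rhesus_950807 (0.1004 RPKM), against 240, 85, 72 and 61 reads (0.315 to 1.18 RPKM), and was the lowest of the 5 animals. *TREM2* had 12 reads in rhesus_950807 (0.340 RPKM, exact Poisson 95% interval 6.20 to 20.96 reads), against 7, 0, 0 and 4 reads, so that it was highest in rhesus_950807, where 3 reads correspond to 0.0851 RPKM. *MSR1* had 3 reads in rhesus_950807, against 0, 0, 0 and 8 reads. *MARCO* had 0 reads in rhesus_950807 (exact Poisson 95% interval up to 3.69 reads, where 3 reads correspond to 0.0555 RPKM), against 0, 6, 14 and 2 reads. A difference of *MSR1* or *MARCO* in muscle was not detectable at this depth.

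Over the 6 genes tested in muscle, 5 had a negative and 1 a positive log2 difference, with a median of −0.97, beside −0.03 for all genes. Genes of other cell types were set beside them. All 8 smooth muscle and pericyte genes tested had a negative log2 difference (median −1.02, 4 at an unadjusted p under 0.05 and 0 called), as had 6 of 7 adipocyte genes (median −0.86) and 4 of 6 endothelial genes (median −0.45). On the first list, *DES* had 2319 to 5031 RPKM in control muscle and 11.6 to 34.1 RPKM in control adipose tissue. On the adipocyte list, the gene named *FABP4* had 27.7 to 68.7 RPKM in control muscle and 0.254 to 3.44 RPKM in control adipose tissue. In muscle, *DES* and *FABP4* therefore cannot be read as markers of smooth muscle, pericytes or adipocytes alone. The part of these cells in the levels of the macrophage genes was not tested. Of 6 genes of tissue-resident macrophages tested, all 6 had a negative log2 difference (median −0.99). In RPKM 3 were below and 1 was above all controls, against 15.2% and 34.9% of all genes. The complement receptor gene *VSIG4* had 0.222 RPKM in rhesus_950807, against 0.924 to 3.73 RPKM (log2 −3.77 ± 0.94, edgeR adjusted p = 0.404), and passed in DESeq2 (adjusted p = 0.000803) and in edgeR without rhesus_940313 (adjusted p = 0.0458). The hyaluronan receptor gene *LYVE1* had 0.852 RPKM, against 1.079 to 3.52 RPKM, and the folate receptor gene *FOLR2* had 0.585, against 0.793 to 3.81 RPKM. *TYROBP* had 5.82 RPKM in rhesus_950807, inside the control range of 3.32 to 6.81 RPKM, and *SPI1* had 1.48, against 1.09 to 3.60 RPKM. *CSF1* had 1.64 RPKM, against 2.07 to 3.61 RPKM, and *IL34* had 0.928, against 0.658 to 1.38 RPKM. The Fc receptor gene *FCGR2A* had 0.879 RPKM, against 1.72 to 2.70 RPKM, and *LGALS3* had 2.04, against 4.03 to 4.53 RPKM. Among 4 SPP1 receptor genes tested the median was −0.38, with 3 negative differences and 1 positive. The positive one was the integrin gene *ITGB1*, above every control with 13.2 RPKM, against 5.75 to 9.30 RPKM (log2 0.64, not called). *CD44* had 5.20 RPKM, against 4.85 to 8.83 RPKM. Of 12 lipid-associated genes tested, 10 had a negative difference (median −0.52), and the median of 13 lysosome genes was −0.16.

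Some genes on the list of muscle precursor cells were high in the same library as *SPP1*. The 5 satellite cell genes summed to 29.3 RPKM in muscle of rhesus_950807, against 6.57 to 9.91 RPKM, and the 4 without *CHRNA1* to 5.99 RPKM, against 3.21 to 4.96 RPKM. *CHRNA1*, the muscle acetylcholine receptor subunit gene that also rises in denervated fibers, had 23.3 RPKM, against 2.52 to 6.70 RPKM. Of the defining genes *PAX7* had 1.19 RPKM, against 0.0663 to 0.334 RPKM, *MYF5* had 1.75, against 0.392 to 1.11 RPKM, and *CALCR* was listed at 0, against 0 to 0.205 RPKM. *NCAM1* had 3.05 RPKM, inside the control range of 1.99 to 4.50 RPKM. Muscle fiber genes summed to 62790 RPKM in rhesus_950807, against 49678 to 61870 RPKM. Of the 7 fiber genes, 3 were above and 2 below all controls, against 34.9% and 15.2% of all genes. Those below were *MYH7*, with 12.9 RPKM, against 45.5 to 531 RPKM, and *TNNT1*, with 14.3, against 69.7 to 651 RPKM. T and NK cell genes summed to 2.20 RPKM, against 2.25 to 5.00 RPKM, of which *CD4* was 1.80, against 1.35 to 3.89 RPKM. Whether *SPP1* in this library came from macrophages, muscle cells or other cells was not tested.

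**Figure D4:**
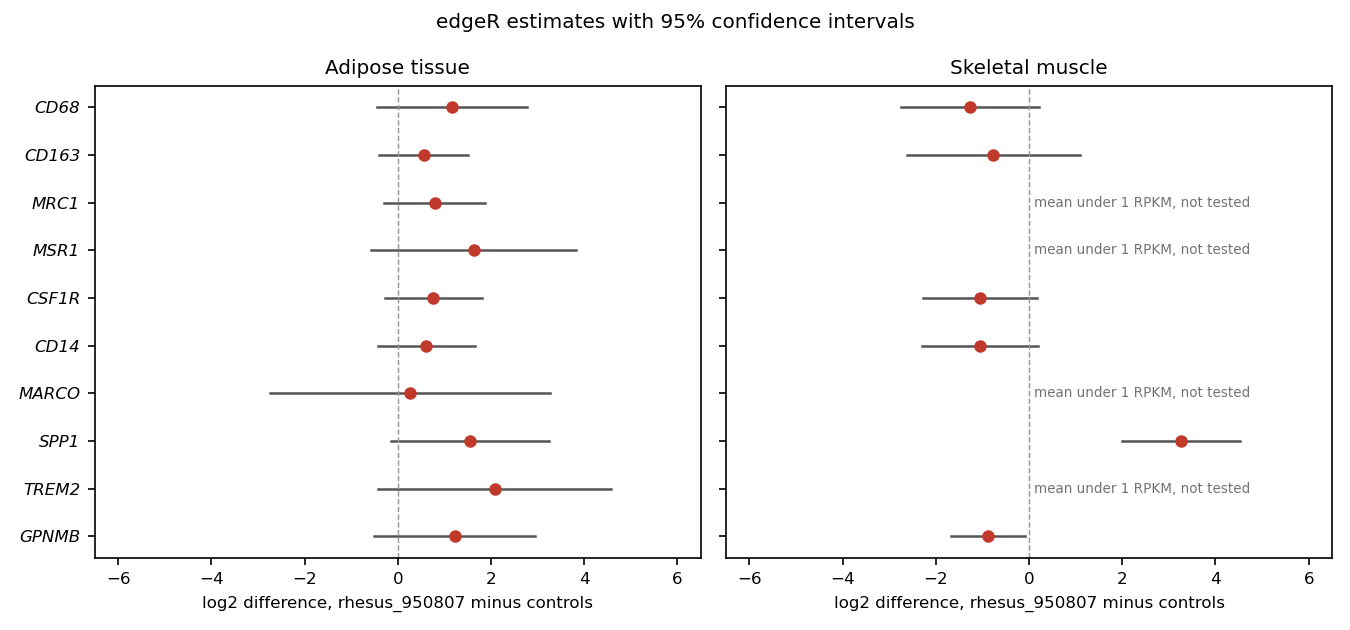
Fitted log2 differences of monkey rhesus_950807 minus the controls with 95% confidence intervals, for adipose tissue on the left and skeletal muscle on the right. In adipose tissue all 10 points lie above 0 and all intervals include 0, and in muscle *SPP1* lies at 3.27 with an interval above 0 while 5 points lie below 0.

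The third comparison set the effect in adipose tissue against the effect in muscle, by an interaction term over all 10 libraries. For the 6 genes measured above the filter in muscle, the difference between the 2 effects was 1.86 ± 0.76 on the log2 scale for *CSF1R*, 1.69 ± 0.73 for *CD14*, 2.47 ± 1.14 for *CD68*, 1.35 ± 0.98 for *CD163* and 2.12 ± 1.06 for *GPNMB* (SE). For *SPP1* it was −1.68 ± 1.30. The first 5 were positive, since these genes were higher than in controls in adipose tissue and lower in muscle, and *SPP1* was higher than in controls in both. Their edgeR adjusted p-values were between 0.853 and 0.924, and 0 of 11270 genes were called (0%), with 633 at an unadjusted p under 0.05 and 11 called by DESeq2.

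The fourth comparison was between the tissues of the 4 control monkeys. All 10 genes had more RPKM in adipose tissue than in muscle of the same animal in 4 of 4 controls. A call needed an edgeR adjusted p under 0.05 and an absolute log2 difference of at least 1. Scaled by TMM, *CSF1R*, *CD14*, *CD68*, *CD163* and *GPNMB* were called higher in adipose tissue, and *SPP1* was not called. Among the 11173 genes tested, 51.6% were called in either direction and 29.6% were called higher in adipose tissue. The 10 genes had a median log2 difference of 2.54, beside 0.23 for all genes. *MRC1*, *MSR1*, *MARCO* and *TREM2* averaged under 1 RPKM in control muscle and passed the filter only through adipose tissue, where they are high. Their calls as higher are therefore not counted here, and the median of 2.54 includes them.

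The general macrophage genes and *GPNMB* were clearly detected in both tissues. *CSF1R* averaged 46.8 ± 16.6 RPKM in control adipose tissue and 5.48 ± 2.48 RPKM in control muscle (SD, n = 4 each), and *CD14* averaged 55.4 ± 17.7 RPKM in adipose tissue and 6.57 ± 2.36 RPKM in muscle. The fitted differences were 3.21-fold and 3.22-fold, with edgeR adjusted p-values of 0.00116 and 0.000955. *CD68* averaged 51.2 ± 43.3 RPKM in adipose tissue and 3.29 ± 1.54 RPKM in muscle, a fitted 5.72-fold difference (edgeR adjusted p = 0.00139). *GPNMB* averaged 97.1 ± 97.2 RPKM in adipose tissue, of which rhesus_920401 holds the largest value, and 6.03 ± 0.92 RPKM in muscle (5.95-fold, edgeR adjusted p = 0.000816). In these 4 genes the libraries of the tissues did not overlap, as was so for 8 of the 10 genes and for 65% of all genes tested. The 8 include *MRC1*, *MSR1* and *TREM2*, which passed the filter only through adipose tissue.

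The uptake receptors and *TREM2* were lower still in control muscle, and *MSR1*, *MARCO* and *TREM2* had few reads there. *CD163* averaged 15.8 ± 5.0 RPKM in adipose tissue and 1.16 ± 0.78 RPKM in muscle (5.12-fold, edgeR adjusted p = 0.000827). *MRC1* averaged 12.5 ± 5.8 RPKM in adipose tissue and 0.565 ± 0.413 RPKM in muscle (8.32-fold). *MSR1* had 711 reads in the 4 adipose libraries together and 8 in the muscle libraries, *MARCO* had 1038 in adipose tissue and 22 in muscle, and *TREM2* had 553 in adipose tissue and 11 in muscle. Their fitted log2 differences were 5.09 ± 1.25, 4.34 ± 1.17 and 4.34 ± 1.22 (SE). Without the adipose libraries of rhesus_920401 and rhesus_940313, *TREM2* and *MARCO* were no longer called, with edgeR adjusted p-values of 0.155 and 0.152.

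*SPP1* differed from the rest in the controls too. It averaged 8.82 ± 6.82 RPKM in control adipose tissue and 1.72 ± 0.94 RPKM in control muscle, and the groups overlapped, since the lowest adipose library, 2.79 RPKM in rhesus_940129, was under the highest muscle library, 2.85 RPKM in rhesus_940313. Its fitted log2 difference was 0.94 ± 0.61 (SE), with an edgeR adjusted p of 0.191. With counts scaled to the mapped totals it was 2.35 and called (edgeR adjusted p = 0.00474), and without the adipose libraries of rhesus_920401 and rhesus_940313 it was −0.54. In rhesus_950807 itself the adipose level of *SPP1* was 1.56 times the muscle level, while that of *CD68* was 82.4 times and that of *CSF1R* 30.2 times.

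**Figure D5:**
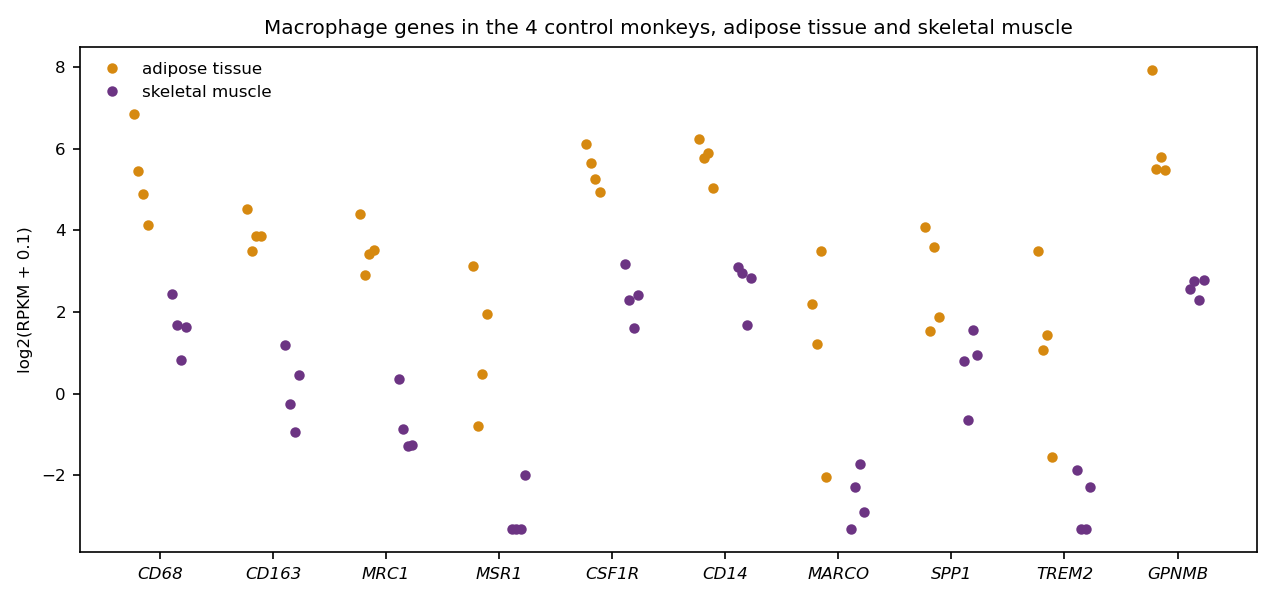
Levels of the 10 macrophage genes in the 4 control monkeys as log2(RPKM + 0.1), 1 point per library, with adipose tissue left of skeletal muscle for each gene. The tissues are apart for 8 genes and overlap for *SPP1* and *MARCO*, and values at the bottom are libraries with 0 reads.

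The size of the difference between tissues depends on the scaling. A few muscle genes take 30.3% to 32.9% of the gene counts of control muscle, the 10 most abundant of each library, against 5.97% to 8.09% in control adipose tissue. With counts scaled to the mapped totals in place of TMM, the median over all genes was 1.61 in place of 0.23 and that of the 10 macrophage genes 3.98 in place of 2.54. Of all genes called, 57.4% were higher in adipose tissue after TMM scaling and 89.8% after scaling to the mapped totals. The *CD68* ratio of mean RPKM was 15.5, where the TMM fit gave 5.72-fold.

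Among the other lists, many genes entered the comparison of tissues only through adipose tissue, where they are high, since they averaged under 1 RPKM in control muscle. This was so for 11 of 12 pan-myeloid genes, 6 of 12 genes of tissue-resident macrophages and 3 of 6 adaptor and Fc receptor genes, and their calls are therefore not counted here. It was so for none of 13 lysosome genes, of which 4 were called higher, near the share of all genes (29.6%), and 1 lower, *TFEB*, with a mean of 11.3 RPKM in adipose tissue and 28.2 RPKM in muscle. In the CD14 and Toll-like receptor pathway, 5 of 11 genes averaged under 1 RPKM in control muscle, so that the calls of this list are not counted either. Its kinase gene *IRAK1*, with 4.83 RPKM in adipose tissue and 8.26 RPKM in muscle, was called lower in adipose tissue (log2 −2.16). With counts scaled to the mapped totals the log2 difference of *IRAK1* was −0.77, under the size of 1 that a call between tissues needs. *CYBB* averaged 8.75 RPKM in adipose tissue and 0.160 RPKM in muscle, and *TYROBP* averaged 55.1 RPKM in adipose tissue and 4.74 RPKM in muscle. The regulator gene *IRF8* averaged 21.8 RPKM in adipose tissue and 0.345 RPKM in muscle. The growth factor genes *CSF1* and *IL34* were called higher as well, with 17.9 RPKM in adipose tissue and 2.84 RPKM in muscle for *CSF1*, and 7.82 RPKM in adipose tissue and 1.05 RPKM in muscle for *IL34*.

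Across the 10 libraries, the 5 named genes whose log2(RPKM + 1) followed the mean of the standardized values of the 10 macrophage genes most closely were *CD83*, *HK3*, *CD53*, *CYBB* and *BIN2*, with Pearson's r of 0.992 to 0.994. The 10 points share animals and 2 tissues, so that r is given as a description and mostly reflects the difference between tissues. *CD83*, a surface protein of activated antigen-presenting cells, had 13.03 RPKM in adipose tissue of rhesus_950807, against 2.96 to 10.3 RPKM in the controls, and at most 0.692 RPKM in any muscle library. *HK3*, the hexokinase of myeloid cells, had 6.33 RPKM, against 1.71 to 6.11 RPKM. Of the 10 macrophage genes, *GPNMB* and *CD68* followed their common mean best (r = 0.987 and 0.979) and *SPP1* least (r = 0.694), its muscle library of rhesus_950807 lying with the adipose libraries.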

How the data were processed

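Poly(A) RNA of adipose tissue and skeletal muscle of 5 male monkeys was sequenced from strand-specific libraries, 1 per animal and tissue. The authors mapped reads with TopHat, release 1.2.0 in the submitters' processing notes (the paper names another), and used uniquely mapped reads. How reads were counted, on which build and with which annotation, is not given in the sources used here. The deposited files hold read counts per gene and the RPKM that the authors made from these counts, transcript length and mapped reads, which recomputation matched within 1e-10. Symbols were found for 15556 genes (54.4%). Starts are counted from 1.

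Counts were tested with edgeR 4.0.16 (quasi-likelihood, TMM) in R 4.3.3, with limma 3.58.1 and DESeq2 1.42.0 among the alternatives. Genes needed a mean of at least 1 RPKM. The macrophage genes and lists were chosen with earlier results of these data known. Named are the 10 genes, *CSF1*, *IL34*, *TYROBP*, *SPI1*, up to 3 genes per pathway list with the smallest p, the first 3 markers per cell type list described, and the 5 most alike genes. *CD300E*, *CHRNA1*, *NCAM1*, *CD4*, *LYZ*, *S100A9*, *MYH7*, *TNNT1*, *DES* and *FABP4* were added after their values were seen. Tissues of an animal pair by its number. Their deviations from the control means correlated by −0.160 to 0.174, and the animal entered as a block in an alternative. In simulated libraries, edgeR found 13% of the 4-fold and 0% of the 2-fold changes in adipose tissue, 55% and 3% in muscle, 68% and 17% between control tissues, and 0% of both for the difference of effects. Each percentage is over 100 changed genes. Of the unchanged genes, it wrongly called 3 in adipose tissue, 7 in muscle, 2 between control tissues and 0 for the difference of effects.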

Additional observations from a re-analysis of the deposited data

Results flagged for a closer look

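Among the 20 sets of 4 control values examined, 3 had 1 animal far from the other 3, its gap to the nearest of them taking most of the range (Dixon's test at the 95% level). With normally distributed values, chance does so in about 1 set in 20. *GPNMB* had 243 RPKM in adipose tissue of control rhesus_920401, against 44.5 to 55.7 RPKM in the other controls. *MRC1* had 1.18 RPKM in muscle of control rhesus_920401, against 0.315 to 0.451 RPKM in the others. *MSR1* had 0.153 RPKM in muscle of control rhesus_950509, which rests on 8 reads, where the other controls had 0. With the others at 0, any read in that library would have been flagged, so this flag carries no information.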

How the results depend on the processing

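Of the values of the 10 macrophage genes recomputed under the alternatives, 440 kept direction and call, 7 gained and 2 lost a call, and 2 changed sign: *MARCO* in adipose tissue (−0.14 without control rhesus_950509, and up to 1.36 when another control was left out) and *SPP1* between control tissues (−0.54 without the adipose libraries of rhesus_920401 and rhesus_940313). *TYROBP* in muscle changed sign without control rhesus_940313 (−0.067, and up to 0.37 when another was left out). Genes called in adipose tissue numbered 0 in edgeR, 11 in DESeq2, 0 to 7 when 1 control was left out and 32 without the adipose libraries of rhesus_920401 and rhesus_940313. In muscle they numbered 0 in edgeR, 88 in DESeq2, 10 without a filter, 3 with mapped totals, 1 each with median-of-ratios scaling, robust estimates and both pseudocounts in limma, and 0 to 14 when 1 control was left out. For the difference of effects DESeq2 called 11. Between control tissues 5767 were called, and 3325 with a filter at a mean of 5 RPKM, where fewer genes are tested. The median of the macrophage genes was 2.01 in adipose tissue without the libraries of rhesus_920401 and rhesus_940313, which held their highest control values. Between tissues their median was 3.98 with mapped totals and 3.73 in limma on log2(RPKM + 0.1). With the animal as a block, the medians were 1.45 in adipose tissue, −0.97 in muscle and 2.47 between tissues, 5712 genes were called between tissues, and no macrophage gene changed its call. Beyond the settings' own construction, the causes were not tested. A group of 1 animal, and few reads in muscle, limit what can be detected.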
